A study of Mus musculus with 6 samples.

Results

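Notch signalling was examined through 10 genes of the ventricle at embryonic day 9.5: the receptors Notch1, Notch2, Notch3 and Notch4, the ligands Jag1, Jag2 and Dll4, and the target genes Hey1, Hey2 and Heyl. They were taken by symbol from the 23284 genes of the deposited table, and each matched 1 row. The table compares heart ventricles of embryos in the C57BL/6 background, made by tetraploid complementation, in which the embryo proper comes from the injected embryonic stem (ES) cells. The 3 WT embryos came from wild type ES cells. The 3 KD embryos came from ES cells of genotype Tbx5ua -/-, in which both alleles of Tbx5ua, a long non-coding RNA gene transcribed divergently from Tbx5, carry inserted polyadenylation signals that stop its transcription early. KD embryos of the study came from 2 ES cell lines, and which line gave the sequenced embryos is not given in the sources used here. The level of Tbx5ua is not analysed here and was not used to check the labels. Each group has 1 value per gene over its embryos, as FPKM, the number of mapped fragments scaled to transcript length and to the size of the library. Levels of different genes are set side by side on this scale. Whether the PCR amplification of the libraries acted alike on transcripts of unlike length was not tested, which limits comparisons between genes. With 1 value per group, no difference could be set against the spread between embryos, no SD can be given and no test was made. In these whole-ventricle samples fewer cells of a type and less RNA per cell cannot be told apart.

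Notch receptors and their ligands are membrane proteins, so the signal passes between cells that touch. Ligand binding exposes the receptor to cleavage, first by an ADAM protease and then by gamma-secretase, and the freed intracellular domain enters the nucleus and joins the DNA-binding protein Rbpj and a Mastermind coactivator to switch on targets such as the Hey and Hes repressor genes. In the embryonic heart Dll4 and Notch1 act in the endocardium, where the pathway is needed for trabeculation and for the valve-forming cushions. Hey1 is best known from atrial myocardium and endocardium and Hey2 from ventricular myocardium, where together they help to hold the atrioventricular canal to its borders.

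Of the 10 genes, Hey1 differed most between the groups, at 13.3 FPKM in WT against 23.1 FPKM in KD, which is 1.74-fold higher in KD. The Jagged ligands were lower in KD, Jag1 by 1.39-fold and Jag2 by 1.38-fold, while Dll4 was 1.18-fold higher. Hey2, the most abundant of the genes, and the 4 receptors each lay within 1.2-fold of WT.

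**Figure D1:**
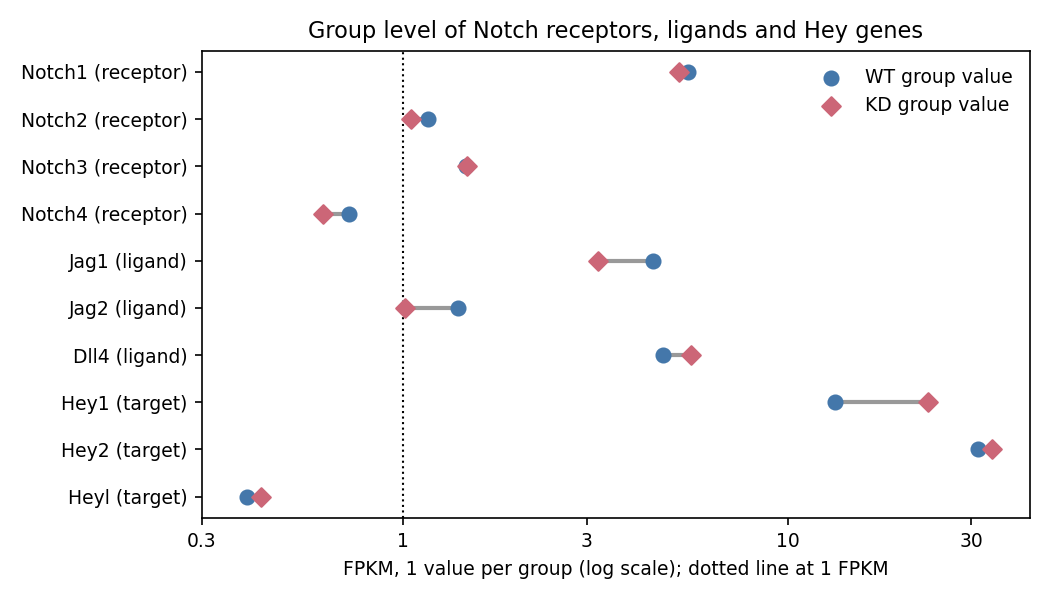
Group value of each gene in WT (circles) and KD (diamonds) in FPKM on a log scale, with 1 value per group and no error bars because the table holds no values of single embryos. The pair for Hey1 (13.3 and 23.1 FPKM) is the farthest apart, and Notch4 and Heyl lie below 1 FPKM in both groups.

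In both groups Hey2 had the highest level and Heyl the lowest, and the genes spanned a wide range, from 0.393 to 31.2 FPKM in WT. The order of levels in WT was Hey2, Hey1, Notch1, Dll4, Jag1, Notch3, Jag2, Notch2, Notch4 and Heyl. In KD it was Hey2, Hey1, Dll4, Notch1, Jag1, Notch3, Notch2, Jag2, Notch4 and Heyl, so that Dll4 passed Notch1 and Notch2 passed Jag2. These neighbours lay close to each other, Notch1 at 5.51 and Dll4 at 4.74 FPKM in WT and at 5.22 and 5.59 FPKM in KD, and without values of single embryos their order cannot be compared with a spread. Among the 11366 genes with a mean of the 2 group values of at least 1 FPKM, Hey2 stood at percentile 75.6 of mean level, Hey1 at 63.9, Notch1 at 33.9 and Notch2 at 1.49. The mean was below 1 FPKM for 2 of the 10 genes, Notch4 and Heyl, which are described but are left out of the counts of genes past a fold given here.

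The Hey genes code for basic helix-loop-helix repressors. Hey1, at 8663359 to 8667038 of chromosome 3, minus strand, in mouse build GRCm38 (mm10), was listed at 13.3 FPKM in WT against 23.1 FPKM in KD, a difference of 9.79 FPKM. On the log2 scale this is 0.80. Hey2, at 30832359 to 30842783 of chromosome 10, minus strand, had 31.2 FPKM in WT against 34.0 FPKM in KD, a log2 ratio of 0.13. Heyl, at 123233556 to 123249870 of chromosome 4, plus strand, had 0.393 FPKM in WT against 0.428 FPKM in KD, a log2 ratio of 0.12. The principal transcript has 5 exons in each of the 3 genes. All 3 genes were thus listed higher in KD, but by unlike amounts, and the level of Hey1 relative to Hey2 went from 0.427 in WT to 0.678 in KD. Hey1 made up 29.7% of the summed Hey level in WT and 40.1% in KD, Hey2 made up 69.5% and 59.1%, and Heyl 0.877% and 0.743%. The sum of the 3 genes was 44.9 FPKM in WT against 57.6 FPKM in KD.

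The region before the Hey2 start is shown because Hey genes are direct targets of Rbpj, whose core motif is GTGGGAA. The window is chr10:30842734-30843033 of build GRCm38.p6 on the minus strand, from RefSeq, with 250 bases before the start and 50 after it, and capitals mark each match to the motif on either strand.
Hey2: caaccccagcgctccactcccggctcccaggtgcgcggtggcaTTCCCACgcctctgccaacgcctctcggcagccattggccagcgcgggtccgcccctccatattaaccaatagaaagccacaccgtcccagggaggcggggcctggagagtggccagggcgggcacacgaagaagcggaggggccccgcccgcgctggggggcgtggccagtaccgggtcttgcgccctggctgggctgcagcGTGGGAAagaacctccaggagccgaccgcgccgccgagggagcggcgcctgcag
The motif occurs 2 times in this window. One match is on the opposite strand, seen here as TTCCCAC from 207 bases before the start. The other is on the gene's own strand, beginning 4 bases before the start. Of the 32851 windows of the same length in the RefSeq promoter table, 6.38% hold the motif at least 1 time and 0.256% at least 2 times. A window was matched for 8 of the 10 genes, and Hey2 was the 1 gene among them with a match. Hey1 and Heyl were not matched. A match of letters is a description and not a site of binding, and its absence says only that these letters are not in the window.

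Among the ligands the Jagged genes were listed lower in KD and Dll4 higher. Jag1, at 137081451 to 137116520 of chromosome 2, codes for the Jagged ligand of endocardium, myocardium and many other tissues and had 4.47 FPKM in WT against 3.21 FPKM in KD, a log2 ratio of -0.48. Jag2, at 112908590 to 112929495 of chromosome 12, codes for its close relative and had 1.39 FPKM in WT against 1.01 FPKM in KD, a log2 ratio of -0.46. Both Jagged genes were lower in KD by nearly the same ratio, so that Jag1 stood at 3.22 times Jag2 in WT and at 3.18 times in KD. With a pseudocount of 1 FPKM, which weighs most on low genes, the log2 ratios were -0.38 for Jag1 and -0.25 for Jag2. Dll4, at 119321199 to 119335666 of chromosome 2, codes for the Delta-like ligand of arterial endothelium and endocardium and had 4.74 FPKM in WT against 5.59 FPKM in KD, a log2 ratio of 0.24. Its row overlaps that of 1 other gene, Gm14207, so its value is less certain, while no other row overlaps those of the remaining 9 genes. Jag1 and Dll4 were near parity in WT, with a ratio of 0.944, and Jag1 was at 0.574 of Dll4 in KD. Dll4 made up 44.7% of the summed level of the 3 ligands in WT and 57.0% in KD, Jag1 made up 42.2% and 32.7%, and Jag2 13.1% and 10.3%. The sum itself was 10.6 FPKM in WT against 9.82 FPKM in KD.

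**Figure D2:**
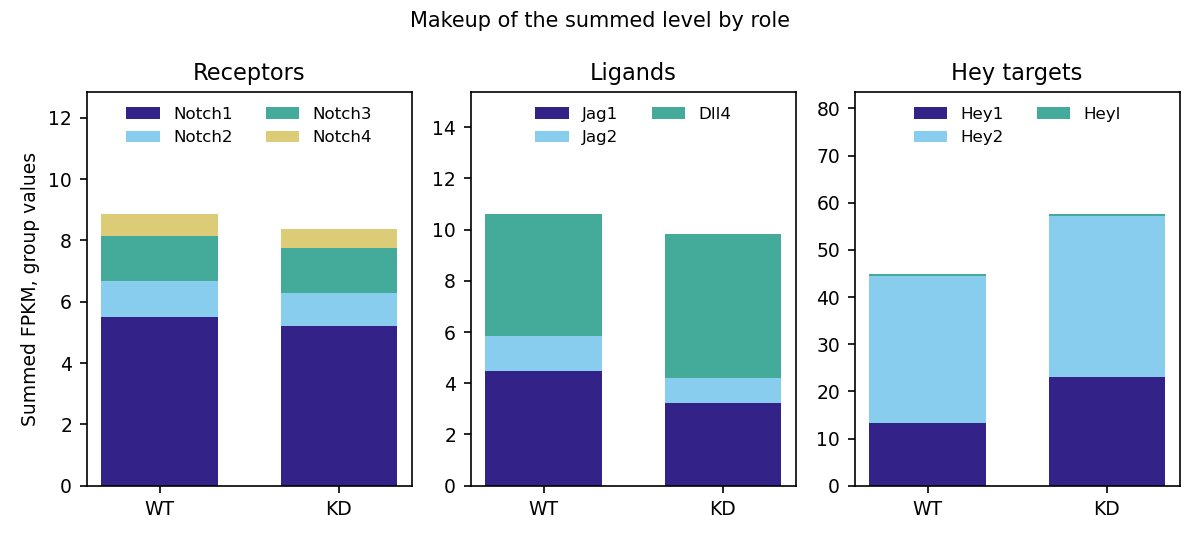
Summed FPKM of the receptors, the ligands and the Hey targets in WT and KD, stacked by gene from 0, with 1 group value per gene and no error bars. Notch1 holds 62.3% of the receptor sum in WT and 62.5% in KD, while Dll4 takes a larger part of the ligand sum in KD and Hey1 a larger part of the Hey sum.

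Notch1 was the main receptor transcript. It lies at 26457902 to 26503822 of chromosome 2, has its known place in endothelium and endocardium, and had 5.51 FPKM in WT against 5.22 FPKM in KD, a log2 ratio of -0.08. Notch2, at 98013538 to 98150367 of chromosome 3 and widely expressed in the embryo, had 1.16 FPKM in WT against 1.05 FPKM in KD, a log2 ratio of -0.15. Notch3, at 32120893 to 32166852 of chromosome 17 and known from smooth muscle cells and pericytes, had 1.46 FPKM in both groups and a log2 ratio of 0.01, which turned to -0.022 with each group scaled to the same sum. These 3 receptors thus differed by little, and Notch1 and Notch2 were listed lower in KD. Notch4, at 34564295 to 34588543 of chromosome 17 and largely endothelial, had 0.724 FPKM in WT against 0.619 FPKM in KD, a log2 ratio of -0.22 at a level where ratios are least certain. The 4 receptors summed to 8.86 FPKM in WT against 8.36 FPKM in KD. Notch1 was 4.74 times Notch2 in WT and 4.97 times in KD, so that the makeup of the receptors was close in the groups.

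Past a fold of 1.5 in either direction was 1 of the 8 genes with a mean of at least 1 FPKM, Hey1, against 7.03% of all 11366 such genes. By direction, 1 of 8 was past this fold higher in KD, against 4.13% of all genes, and 0 of 8 were past it lower in KD, against 2.90%. The share depends on the level: 15.5% of the genes from 1 to 5 FPKM were past 1.5-fold, 3.76% from 5 to 20 FPKM and 1.92% from 20 to 100 FPKM. A log2 ratio as far from 0 as that of Hey1 was found in 1.99% of the genes of its range, 5 to 20 FPKM, where the median distance from 0 was 0.15. For Jag1 the share was 22.1% and for Jag2 23.5% of the genes from 1 to 5 FPKM, for Dll4 30.3% of those from 5 to 20 FPKM, and for Hey2 43.7% of those from 20 to 100 FPKM. The mean of Dll4, 5.17 FPKM, lies just above an edge, and the median distance from 0 was 0.25 in the range below. The share of Dll4 thus depends on where that edge was set. Notch1, Notch2 and Notch3 lay nearer to 0 than most genes of their ranges, with shares of 73.1%, 67.4% and 98.0%. These shares describe where the genes lie among others and are no test. At a fold midway between 1 and 1.5, Jag1 and Jag2 joined Hey1, which gave 3 of 8 genes against 20.8% of all genes, and at a fold of 2 there were 0 of 8 against 2.23%. The median log2 ratio of the 8 genes was -0.03, beside 0.0042 for all genes, and turned to 0.18 over the 4 genes with a mean of at least 5 FPKM.

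**Figure D3:**
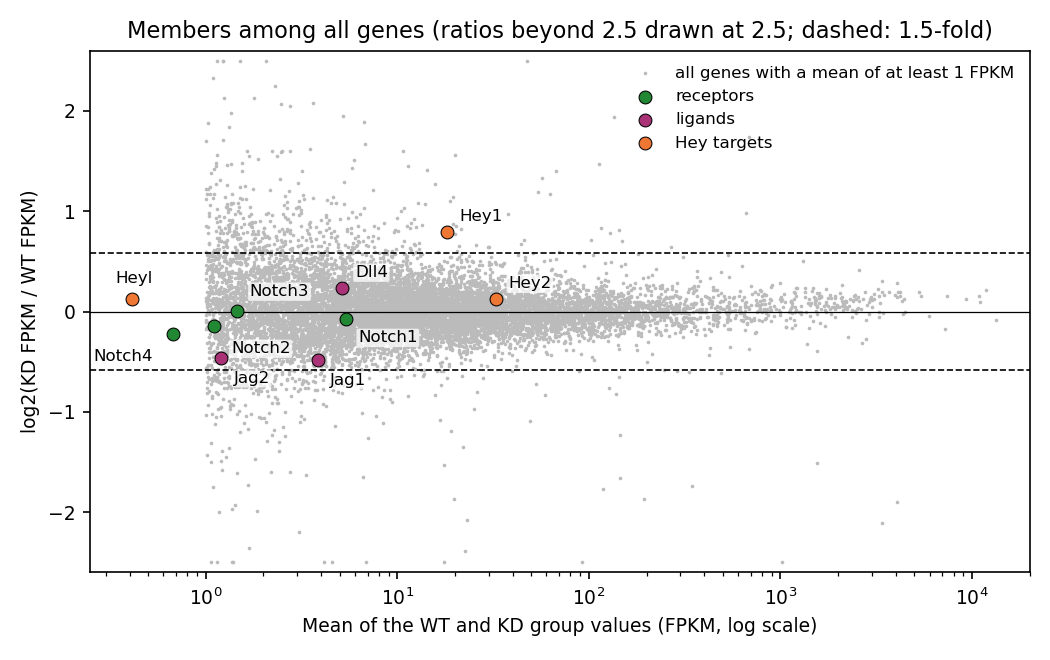
log2 ratio of the KD over the WT group value against the mean of both values in FPKM on a log scale, with all genes of at least 1 FPKM in grey, the 10 Notch genes in colour and dashed lines at 1.5-fold. Hey1, at 0.80, lies above the upper line and outside the bulk of genes at its level, and the other genes lie between the lines. Genes with 1 group listed at 0 have no finite ratio and are not drawn.

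Around these genes, 60 others of the pathway were listed in 9 groups by role, of which 48 had a mean of at least 1 FPKM. Past 1.5-fold higher in KD were 2 of the 48, Nrarp and Dlk1, a share close to the 4.13% of all genes. Past it lower in KD were 0 of the 48, against 2.90% of all genes. Nrarp, a target that feeds back to restrain Notch and lies at 25180758 to 25183332 of chromosome 2, had 1.62 FPKM in WT against 2.92 FPKM in KD, a log2 ratio of 0.85. Dlk1, an imprinted gene for a noncanonical ligand, had 3.89 FPKM in WT against 5.89 FPKM in KD, a log2 ratio of 0.60, just past the line. Both have means from 1 to 5 FPKM, the range in which 15.5% of all genes were past this fold. Nrarp stood beside Hey1 among the targets, and of the Hes genes with a mean of at least 1 FPKM, Hes1 was listed at 27.3 FPKM in WT against 37.9 FPKM in KD, a log2 ratio of 0.47. Hes1, a repressor gene used by Notch in many tissues, thus lay within 1.5-fold, as did Hes6 at 38.6 and 38.8 FPKM and Hes7 at 2.38 and 2.53 FPKM. Hes5, the Notch target of neural progenitors, was at 0.0908 FPKM in WT and listed at 0 in KD.

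Among the other ligands Dll1, a Delta-like ligand as Dll4 is, was at 3.17 FPKM in WT against 4.23 FPKM in KD, a log2 ratio of 0.42. Jag1 and Jag2 together were at 0.742 of the sum of Dll1 and Dll4 in WT and at 0.430 in KD. The machinery that receives and carries the signal was read by list. Of genes with a mean of at least 1 FPKM, 7 of 7 for receptor glycosylation and cleavage lay within 1.5-fold. So did 6 of 6 for gamma-secretase and 7 of 7 for the nuclear complex. The same held for 6 of 6 corepressors and 4 of 4 ubiquitin ligases that act on ligands. In that order, the median log2 ratios of the lists were -0.10, 0.05, -0.02, -0.11 and 0.15. With 7.03% of all genes past this fold, most genes of any list lie within it. Farthest from 0 in these lists, at a mean of at least 1 FPKM, was the ligase gene Neurl1b at 0.57, close to the line. Next was Mfng, a Fringe glycosyltransferase gene, at 0.53, and both were farther than Jag1 and Jag2. Below that mean, Lfng was listed at 0.111 and 0.287 FPKM and Aph1c at 0.0117 and 0.0877 FPKM, both past 1.5-fold higher in KD. Adam10, the protease of the first cut and the highest gene of its list by the mean of both groups, had 15.7 and 16.8 FPKM, and Poglut1, which adds glucose to the receptor, 16.7 and 14.2 FPKM. Psenen, the smallest gamma-secretase subunit, had 148 and 179 FPKM, and Rbpj 7.01 and 7.42 FPKM in WT and KD. The highest genes of the nuclear, corepressor and ligase lists were Snw1, a coactivator of the nuclear complex, at 49.1 and 48.3 FPKM, Hdac1, a histone deacetylase, at 90.6 and 87.1 FPKM, and the ligase Mib2 at 3.09 and 3.86 FPKM. The 7 inhibitors and turnover genes with a mean of at least 1 FPKM, Nrarp among them, had a median log2 ratio of 0.25. Dtx2, a Deltex ubiquitin ligase gene and the highest of them, had 18.7 and 22.3 FPKM, and Numb, an inhibitor of Notch and the 1 of the 7 lower in KD, 11.5 and 8.41 FPKM. Of the genes for trabeculation that act after endocardial Notch, 6 of 6 lay within 1.5-fold, with a median log2 ratio of -0.11. Erbb2, a neuregulin coreceptor and the highest of them, was at 17.2 and 15.4 FPKM. Nrg1, the neuregulin ligand, was at 4.52 FPKM in WT against 3.36 FPKM in KD, Efnb2, the ephrin ligand, at 5.68 and 5.44 FPKM, Ephb4, its receptor and the 1 gene of the list higher in KD, at 12.7 and 15.4 FPKM, and Bmp10, the trabecular growth factor, at 13.2 and 11.7 FPKM.

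**Figure D4:**
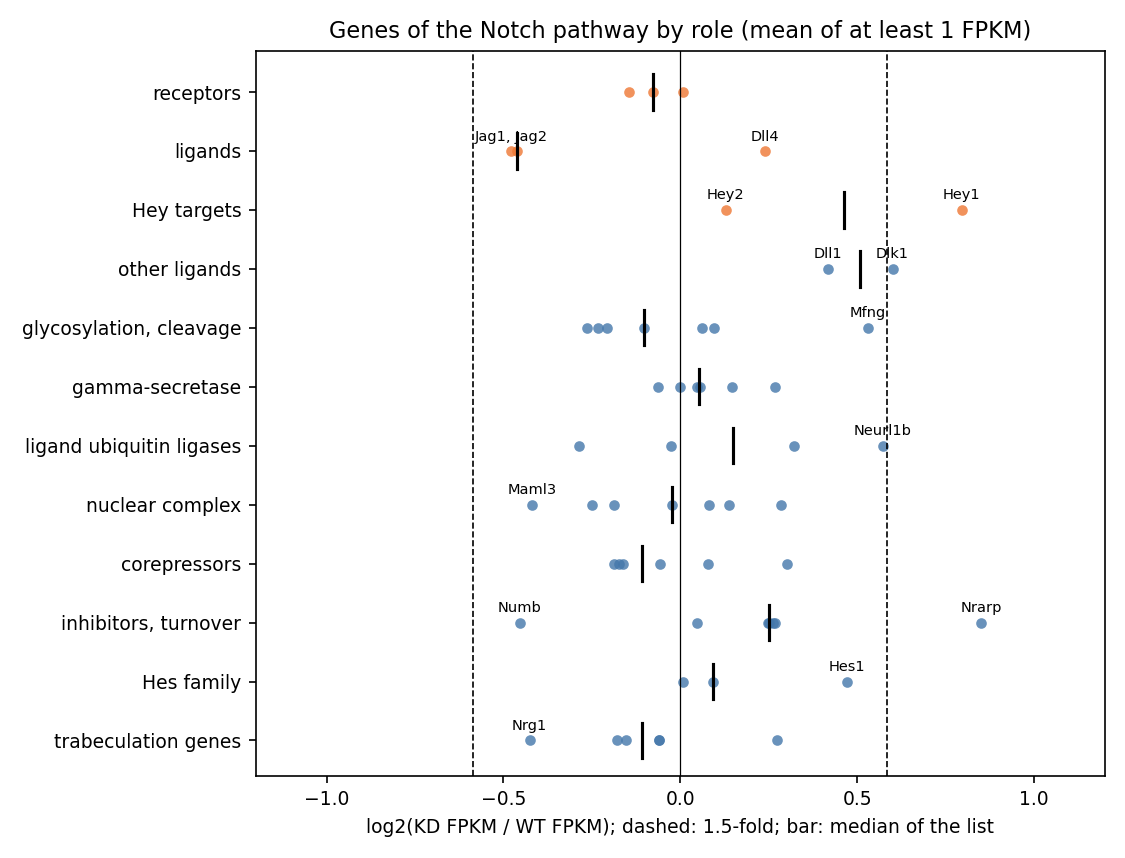
log2 ratio of the KD over the WT group value for each gene with a mean of at least 1 FPKM, by role, with the 8 Notch genes in orange, the 48 other pathway genes in blue, a bar at each median and dashed lines at 1.5-fold. Hey1, Nrarp and Dlk1 lie past the upper line, no gene lies past the lower one, and Jag1 and Jag2 lie close together at -0.48 and -0.46.

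Markers of cell types were read in the same table, since each Notch gene is best known from certain cells. The defining cardiomyocyte genes of the labelled tissue were abundant. The 8 cardiomyocyte markers summed to 27662 FPKM in WT against 28665 FPKM in KD, with 0 of 8 past 1.5-fold, a median log2 ratio of -0.05 and ratios from -0.25 for Myh6 to 0.22 for Myl2. The 10 endothelial and endocardial markers, from the cells in which Notch1, Notch4 and Dll4 are best known, summed to 252 FPKM in WT against 283 FPKM in KD, and 0 of 10 were past 1.5-fold, with ratios from -0.26 for Nfatc1 to 0.41 for Emcn. Relative to Pecam1, a gene of all endothelium, Notch1 was at 0.222 in WT and 0.204 in KD and Dll4 at 0.191 and 0.218. With the median of these markers subtracted, Hey1 had a log2 ratio of 0.72, Jag1 of -0.55 and Dll4 of 0.16. Of 6 arterial endothelial markers with a mean of at least 1 FPKM, 1 was past 1.5-fold, Gja5, a connexin gene shared by arteries, atria and trabeculae, at 7.02 FPKM in WT against 12.1 FPKM in KD, a log2 ratio of 0.79. The 6 markers ran from -0.01 for Sox17 to this value, and the list of 7 summed to 66.8 and 85.0 FPKM.

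Atrial, epicardial and cushion genes include some that, like Hey1, were higher in KD. Of the atrial markers, 3 of 6 had a mean of at least 1 FPKM and 1 was past 1.5-fold, Nr2f2, an atrial transcription factor gene, at 2.01 FPKM in WT against 4.15 FPKM in KD. The lowest of the 3 was Tbx5 at -0.14, and Sln, a defining atrial marker, was listed at 0 in both groups. The list summed to 26.9 and 29.0 FPKM, of which Tbx5 held 17.2 and 15.7 FPKM. Tbx5 is not confined to atria, since the paper describes it in ventricles, at a higher level in the left one. The sum thus says little of the other atrial markers. Below a mean of 1 FPKM, the atrial markers Nr2f1 and Vsnl1 were also listed higher in KD, Nr2f1 at 0.552 and 1.07 FPKM and Vsnl1 at 0.555 and 1.14 FPKM. Of the epicardial markers 5 of 6 were past 1.5-fold and higher in KD, and the 6 ran from 0.48 for Wt1, within that fold, to 1.41 for Upk3b, with a sum of 47.0 FPKM in WT against 95.9 FPKM in KD. Of the cushion mesenchyme markers 3 of 6 were past it higher in KD, led by Sox9 at 0.84, and 1 lower, Msx1 at -0.94, with a sum of 30.5 and 36.7 FPKM. Their part in the higher level of Hey1 was not tested.

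Mural cells, in which Notch3 is best known, and the remaining cell types followed. Of 5 mural cell markers with a mean of at least 1 FPKM, 1 was past 1.5-fold and lower in KD, Tagln, a smooth muscle gene that embryonic myocardium also uses, at -0.61. Pdgfrb, the receptor that marks mural cells, was highest at 0.06, and Myh11, the defining gene of mature smooth muscle, was below 0.3 FPKM in both groups. Of the 5 markers 2 were higher in KD, Pdgfrb at 1.68 and 1.75 FPKM and Cspg4 at 1.72 and 1.74 FPKM, and 3 were lower. The list summed to 3651 and 2933 FPKM, of which the actin gene Acta2 held 3045 and 2512 FPKM. The sum thus says little of Pdgfrb and Cspg4. Of the 5 ventricular and compact wall markers 0 were past 1.5-fold, from -0.43 for Mycn to 0.22 for Myl2. Their median log2 ratio was -0.21, with 3 lower and 2 higher in KD. Their sum of 15037 and 17235 FPKM was mostly Myl2, at 10924 and 12702 FPKM. Of the 4 markers of the atrioventricular canal 0 were past it, from -0.52 for Msx2 to 0.29 for Bmp2, with a sum of 18.8 and 16.8 FPKM. Of the 5 neural crest markers 0 had a mean of at least 1 FPKM, with a sum of 1.39 and 0.818 FPKM and Foxd3 listed at 0 in both groups. The 5 erythroid markers in the table summed to 11438 and 11518 FPKM, and the lowest log2 ratio among them was -0.08, for Hbb-bh1. Whether any of these cells has a part in the lower level of Jag1 and Jag2 was not tested.

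**Figure D5:**
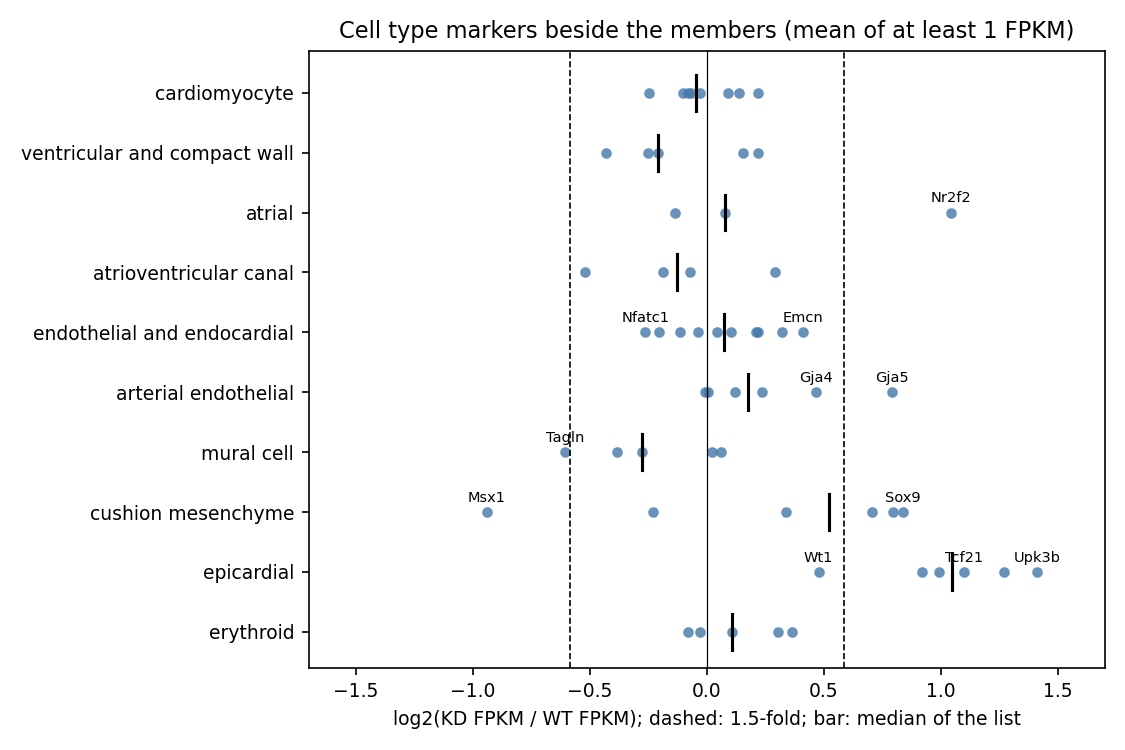
log2 ratio of the KD over the WT group value for markers of each cell type or region with a mean of at least 1 FPKM, a bar at each median and dashed lines at 1.5-fold. Of the epicardial markers 5 of 6 lie past the upper line, where Nr2f2, Gja5 and 3 cushion mesenchyme markers also lie, while cardiomyocyte and endothelial and endocardial markers stay between the lines.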

How the data were processed

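RNA-seq of heart ventricles at embryonic day 9.5 was made by the authors from 3 WT and 3 KD embryos with single-end Smart-Seq2 libraries, which amplify full-length cDNA by PCR. Samples were grouped by their titles. The submitters' processing notes name TopHat, Bowtie2, Cuffdiff and build mm10, without versions. The authors deposited 1 Cuffdiff table, in which every gene has 1 FPKM value in each group. Its second group is written KO and was taken as KD. The table's own fold changes, test statistics, p-values and q-values were not used, and 0 columns of single embryos were present. Depth is unknown, so no interval is given. Gene starts had 1 added, after 9652 genes matched a GENCODE M21 transcript end that way and 944 without.

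The ratio of KD to WT was computed with no pseudocount over 11366 genes with a mean of the 2 group values of at least 1 FPKM, and a fold of 1.5 was the criterion. In 57 of these genes 1 group is listed at 0, and they count as past the fold. Members and gene lists were chosen with earlier results of these data known. Named genes were every member, pathway genes past 1.5-fold or, in a list with none, its highest gene, and the extremes of each marker list, of which 1 is not reported here. Others were chosen after their values were seen. Scripts were tested on simulated data. Python 3.11.15, NumPy 2.4.6, pandas 2.3.3 and Matplotlib 3.10.9 were used.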

Additional observations from a re-analysis of the deposited data

How the results depend on the processing

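No paired analysis was possible because each group has 1 value per gene, and for the same reason the limma fit, with and without each replicate, was not run. The count of genes past the fold was 1 of 8 with either pseudocount (1 and 0.1 FPKM) and under both scalings, 1 of 10 with no filter, which adds Notch4 and Heyl, and 1 of 4 with a mean of at least 5 FPKM, Hey1 in each case. It became 3 at a fold midway between 1 and 1.5 and 0 at a fold of 2, by construction. The median log2 ratio of -0.03 turned to 0.18 with a mean of at least 5 FPKM, where 4 genes were left, and moved to -0.039 on subtracting the median of all genes and to -0.066 with each group scaled to the same sum. Of 50 values of single members under 5 settings 48 kept their direction and side of 1.5-fold. A pseudocount shrinks a ratio without turning its direction, and subtracting the median of all genes moved each value by only 0.0042. Those settings could change little, so this count is a weak check. The 2 values that changed were of Notch3, which turned to -0.022 with each group scaled to the same sum and to -0.066 with the endothelial and endocardial median subtracted. Hey1 stayed from 0.72 to 0.80, Jag1 from -0.55 to -0.38, Jag2 from -0.54 to -0.25 and Dll4 from 0.16 to 0.24. The share of all genes past the fold went from 7.03% to 3.41% with a pseudocount of 1 FPKM, to 21.1% of 15739 genes with no filter, to 3.02% of 7704 genes with a mean of at least 5 FPKM, and to 6.56% without genes listed at 0 in 1 group, a choice made after seeing the data. Depth is unknown, which leaves least certain Notch4, Heyl and other genes near or below 1 FPKM.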

Other observations

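The neighbours of the 10 genes on the chromosomes were read as a further description. Within 250 kb of the ends of the 10 genes lay 66 other genes with a mean of at least 1 FPKM, of which 0 were past 1.5-fold higher in KD, against 4.13% of all genes, and 3 lower, against 2.90%, with a median log2 ratio of 0.03. Hey1 has 2 such neighbours. Stmn2, a neuronal stathmin gene, was at 1.77 FPKM in WT against 0.904 FPKM in KD, and Mrps28, for a mitochondrial ribosomal protein, at 177 and 189 FPKM. Neither was past 1.5-fold higher in KD, as Hey1 was. Near Hey2, Ncoa7, a nuclear receptor coactivator gene, was at 3.44 FPKM in WT against 1.72 FPKM in KD. Near Notch1, the endothelial gene Egfl7 was at 71.4 and 89.1 FPKM, a log2 ratio of 0.32, beside -0.08 for Notch1. Snora43, a small RNA gene whose level FPKM gives poorly, was at 26.6 and 11.7 FPKM. It shares its row's span with Snhg7 and with Snora17, which was higher in KD, at 19.4 and 24.5 FPKM. These genes were named after their values were seen.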
